A study of Mus musculus with 2 samples.

Results

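Among the cells sorted from the small intestine as IL-10-producing CD4+ T cells were cells whose transcripts included both chains of the CD8 coreceptor, Cd8a and Cd8b1. These Cd8a+Cd8b1+ cells were chosen by 3 values: at least 1 unique molecular identifier (UMI, which counts each captured RNA molecule once) of Cd8a, at least 1 UMI of Cd8b1, and fewer than 6% of the UMIs of the cell from mitochondrial genes. The rule selected 145 of the 1408 intestinal cells below the mitochondrial limit, or 10.3% (exact binomial 95% interval 8.76 to 12.0%), out of 1474 intestinal cells and 3212 cells in both libraries. In the spleen the same rule selected 0 of 1681 cells.

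The cells came from mice carrying 2 reporters, eGFP for IL-10 and mRFP for Foxp3, aged 8 to 16 weeks. Every mouse was given the T-cell-activating antibody anti-CD3 (15 µg per injection, 2 injections, days 0 and 2), and tissues were taken 4 h after the last injection. IL-10 eGFP+ CD4+ T cells, Foxp3+ cells included, were sorted from small intestine and spleen, and 1 10X library was made from each tissue. How many mice were pooled is not given in the sources used here, and no untreated animal was analysed here. The intestinal library held 5693395 UMIs, with a median of 3618.5 per cell, and the splenic library 11103530 UMIs over 1738 barcodes (median 5532.5). The libraries shared 0 cell barcodes.

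T cells that recognize MHC class II carry the coreceptor CD4, and those that recognize MHC class I carry CD8, which on conventional killer cells is a pair of an alpha and a beta chain. In the intestinal epithelium, many T cells carry CD8 as a pair of alpha chains, and CD4+ T cells that settle there can acquire that form. Such intraepithelial lymphocytes are known for granzymes, for receptors that they share with natural killer (NK) cells, and for the integrin alphaE beta7, which binds E-cadherin on epithelial cells.

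The Cd8a+Cd8b1+ cells were set beside 923 intestinal cells below the same mitochondrial limit that had neither Cd8a nor Cd8b1 UMIs and at least 1% of their UMIs from Ccl5, a chemokine of effector T cells. These are called the comparison cells. Of the other intestinal cells, 59 had Cd8a only, 36 had Cd8b1 only, and 245 had neither transcript and less Ccl5. Levels are given as the UMIs of a gene summed over the cells of a group and scaled to 1000000 UMIs of that group (CPM), and differences as log2 ratios of CPM, Cd8a+Cd8b1+ cells over comparison cells unless stated. Brackets hold 95% intervals, which are exact Poisson intervals for levels, exact conditional binomial intervals for ratios and Clopper-Pearson intervals for shares, and cover counting error only. As there was a single library, and cells of 1 library are not replicates, no test was made and a gene is called higher or lower only when its ratio was at least 2-fold.

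Depth differed between these groups. The Cd8a+Cd8b1+ cells had a median of 4468 UMIs (1106 to 12029) and together 770121, whereas the comparison cells had a median of 3574 (990 to 12143) and together 3374981. A rule that asks for 2 different transcripts in a cell takes deeper cells more often, so shares of cells with a UMI are given after each cell was thinned at random to 2000 UMIs, which left out 2 Cd8a+Cd8b1+ and 121 comparison cells. The median mitochondrial share was 2.37% against 1.80%.

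The genes that chose the cells are described first. Cd8a, which encodes the CD8 alpha chain (GRCm38 chr6:71373427-71379173), had 1039 UMIs in the 145 cells, or 1349 CPM, with a lowest count of 1, a median of 6 and a highest of 22 per cell. Cd8b1, which encodes the beta chain and lies 35932 bases away on the same chromosome (chr6:71322788-71337494), had 874 UMIs, or 1135 CPM, with 1, 5 and 22 per cell. Of the 145 cells, 22 had a single UMI of the scarcer transcript, 56 had 2 to 4 and 67 had 5 or more. In 123 cells both transcripts thus lay above the limit of the rule. Of the 1251 Cd8a and 965 Cd8b1 UMIs of the whole intestinal library, most came from these cells.

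**Figure D1:**
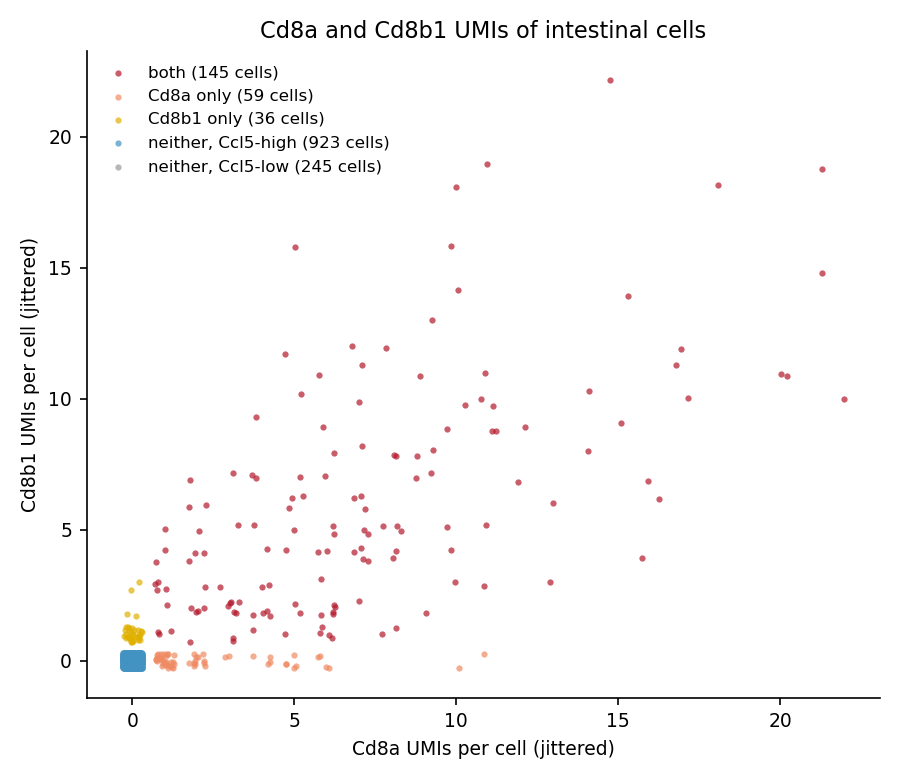
Each point is 1 of the 1408 intestinal cells, with its Cd8a UMIs on the horizontal and its Cd8b1 UMIs on the vertical axis, moved at random within 0.3 of a UMI so that points do not hide each other. The 145 Cd8a+Cd8b1+ cells (red) reach 22 UMIs of each transcript, and the cells with Cd8b1 only stay at 3 or fewer.

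Free RNA can place a transcript in a droplet whose cell does not make it. Among the 253 intestinal cells with less than 1% Ccl5, whose median depth was 3818 UMIs, Cd8a was found in 3 (1.19%, 0.245 to 3.43%) and Cd8b1 in 5 (1.98%, 0.645 to 4.55%). Among the 1155 cells with 1% or more, with a median of 3662 UMIs, the shares were 17.4% (15.3 to 19.7%) and 15.2% (13.2 to 17.4%). All 145 Cd8a+Cd8b1+ cells had at least 1% Ccl5, from 1.51% to 14.1% with a median of 4.97%, although the rule did not ask for it in them. Cells with Cd8b1 only made up 2.56% of the intestinal cells (1.80 to 3.52%). The share of Cd8b1 in the cells low in Ccl5 counts cells with or without Cd8a, so it is not the same measure. The part of free RNA in these counts was not tested.

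At the limits of the rule, 7 cells with both transcripts had a mitochondrial share of 5 to 6% and 13 had one of 6 to 10%, just outside it. Cd8a stood at 1301 and 1310 CPM in these groups and Cd4 at 42.0 and 148 CPM. Klrd1 stood at 587 CPM (321 to 986) inside and 297 CPM (153 to 518) outside, Gzma at 38355 and 27083 CPM, and Gzmb at 7679 and 5016 CPM, all below the level of the 145 cells together given further on. The 22 cells with a single UMI of the scarcer chain had 1389 CPM of Cd7 and 128 CPM of Cd4, and just outside, the 30 cells with 1 Cd8a and 0 Cd8b1 UMIs had 1050.3 CPM of Cd7 and 418 CPM of Cd4. Of the comparison cells, 41 had 1 to 1.5% Ccl5, with 323 CPM of Cd4, and just outside, 46 had 0.5 to 1%, with 450.4 CPM.

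The label of the sort was set against the transcripts. Cd4 (chr6:124864692-124888221) had 91 UMIs in the Cd8a+Cd8b1+ cells, with 0, 0 and 4 as the lowest, median and highest count per cell, and 1571 in the comparison cells, with 0, 1 and 8. The level was 118 CPM (95.1 to 145) against 465 CPM (443 to 489), a log2 ratio of -1.98 (-2.30 to -1.67). At 2000 UMIs per cell, 18.9% of the Cd8a+Cd8b1+ cells (12.8 to 26.3%, 27 of 143) had a Cd4 UMI, and 60.3% of the comparison cells (56.9 to 63.8%, 484 of 802). Without thinning the shares were 39.3% and 77.4%. No group in these libraries is known to lack Cd4, so the share that free RNA alone would give could not be set beside these.

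Other genes of the CD4 lineage were also low. Cd40lg, which encodes the helper molecule CD40 ligand, had 1 UMI in the Cd8a+Cd8b1+ cells and 163 in the comparison cells, a log2 ratio of -5.22 (-10.53 to -2.72). Zbtb7b, which encodes the CD4-lineage factor ThPOK, had 3 and 66 UMIs, under the minimum of 100 UMIs over both groups that was set for a gene to enter the comparison across genes, with a ratio of -2.33 (-4.64 to -0.72). Of the 3 transcripts of the CD4 lineage, only Cd4 itself was thus found in more than a few Cd8a+Cd8b1+ cells. CD4 protein, on which the sort was made, is not measured by these counts.

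The Cd8a+Cd8b1+ cells were also divided by whether they had a Cd4 UMI. Among the 57 Cd8a+Cd8b1+ cells with a Cd4 UMI, whose median depth was 5182 UMIs, Cd8a stood at 1248 CPM (1133 to 1372), and among the 88 without, with a median of 3995, at 1431 CPM (1320 to 1550). Cd8b1 stood at 1089 (982 to 1205) and 1172 CPM (1072 to 1280), and Cd7 at 1862 (1721 to 2012) and 1860 CPM (1732 to 1994), so that for each of the 3 the intervals overlapped. Klrd1 stood at 1179 CPM (1067 to 1299) in the cells with a Cd4 UMI and 871 (784 to 964) in those without. Gzmb stood at 19251 (18791 to 19719) and 15606 CPM (15233 to 15986). Both genes were within 2-fold, although their intervals did not overlap. In the comparison cells Klrd1 was at 298 CPM and Gzmb at 13517 CPM. Maf and Tnfrsf4, which were abundant in the comparison cells, were higher in the Cd8a+Cd8b1+ cells with a Cd4 UMI. Maf stood at 84.0 CPM (56.2 to 121) against 21.2 (9.69 to 40.2), and Tnfrsf4 at 214 CPM (168 to 269) against 58.8 (38.1 to 86.9). Droplets that hold a pair of cells were not called here, and their part in these values was not tested.

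**Figure D2:**
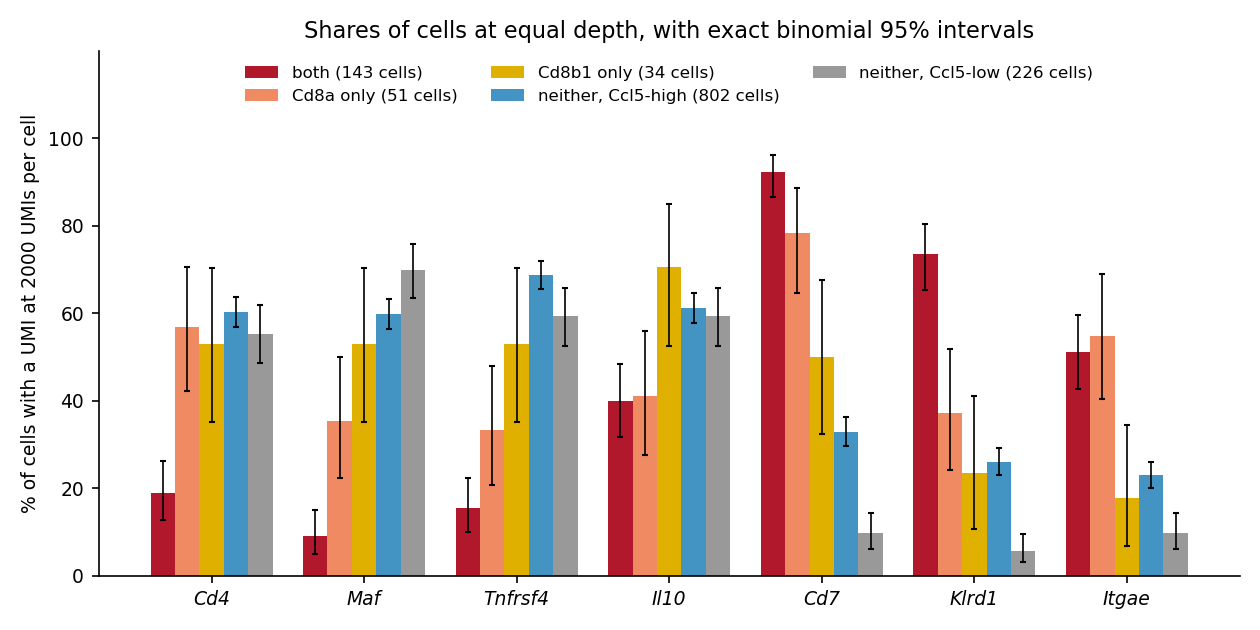
Bars give the percent of cells with at least 1 UMI of each gene after thinning to 2000 UMIs per cell, in 5 groups of intestinal cells, and lines the exact binomial 95% intervals (counting error only). Cd4, Maf and Tnfrsf4 are lowest in the Cd8a+Cd8b1+ cells (18.9%, 9.09% and 15.4%), and Cd7 and Klrd1 are highest there (92.3% and 73.4%).

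Across all genes, 4450 had at least 100 UMIs over both groups. Of these, 77 (1.73%) were at least 2-fold higher and 232 (5.21%) at least 2-fold lower in the Cd8a+Cd8b1+ cells, and the median log2 ratio of all 4450 was -0.11. When ratios were taken relative to that median, 93 were higher and 180 lower. The balance depended on the minimum of UMIs, which is summed over groups of unequal depth and so is reached more easily by genes of the comparison cells. At a minimum of 50 UMIs, 160 genes were higher and 380 lower. With only 1 UMI in each group, 1225 genes were higher and 941 lower. At that setting a gene with 1 UMI in each group counts as higher through the unequal totals alone, such as Eomes with a ratio of 2.13. Since these are the cells that the rule chose, counts of genes are descriptions of them, and the shares of 1.73% and 5.21% stand as the background beside each list of genes below.

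**Figure D3:**
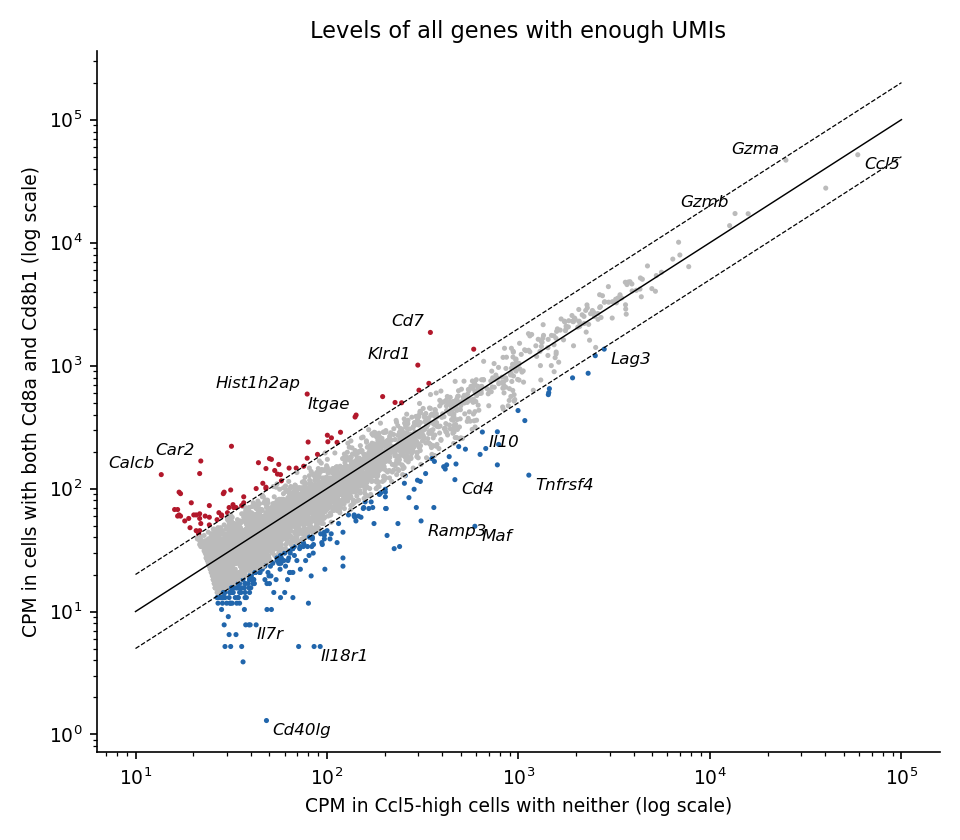
Each point is 1 of the 4450 genes, with its CPM in the comparison cells on the horizontal and in the Cd8a+Cd8b1+ cells on the vertical axis, both on log scales. Solid and broken lines mark equal levels and 2-fold differences, the 77 genes above are red and the 232 below are blue, and Cd7, Klrd1, Maf, Tnfrsf4 and Cd40lg lie far from the line.

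The 3 other genes named as markers of these cells, chosen with earlier results of these data known, were all more abundant. Cd7, a surface molecule of T and NK cells (chr11:121036747-121039418), had 0, 7 and 44 UMIs as the lowest, median and highest count per cell, while the comparison cells had a median of 0 and a highest count of 29. Its level was 1861 CPM against 347, a log2 ratio of 2.42 (2.31 to 2.54), and at equal depth 92.3% of the Cd8a+Cd8b1+ cells (86.7 to 96.1%) and 32.9% of the comparison cells (29.7 to 36.3%) had a UMI. Klrd1, which encodes CD94, the shared partner of the NKG2 receptors, had 0, 3 and 46 UMIs per cell and 1009 CPM against 298, a ratio of 1.76 (1.62 to 1.90). Gzma, the protease granzyme A, had 8, 199 and 749 UMIs per cell against a median of 60 in the comparison cells. With 46850 CPM against 24919 it had a ratio of 0.91 (0.89 to 0.93), just short of 2-fold, and 95.9% of the Cd8a+Cd8b1+ cells lay above the median level of the comparison cells.

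The NK receptor genes were the next list. Of its 26 listed genes 8 had enough UMIs, of which 5 were higher and 0 lower, with a median log2 ratio of 1.44 that includes the marker Klrd1. Klrc1 and Klrc2, which encode NKG2A and NKG2C, the partners of CD94, had ratios of 1.58 (1.31 to 1.86) and 2.61 (2.17 to 3.07), with 239 CPM against 79.7 and 132 CPM against 21.6. These genes are close relatives and neighbours on chromosome 6, so reads could be divided between them. Cd160, a receptor of intraepithelial and NK cells, had a ratio of 1.29 (1.04 to 1.53), and Cd226, an activating adhesion receptor, one of 1.59 (1.003 to 2.17).

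Slamf7 at -0.21, Il2rb at -0.20 and Hcst at -0.49, whose product DAP10 relays signals of NKG2D, were within 2-fold. Under the minimum of 100 UMIs, Klrk1, which encodes NKG2D, had 34 UMIs against 14 (ratio 3.41, 2.48 to 4.42), Cd244, a receptor of the SLAM family, 32 against 20 (2.81, 1.96 to 3.69), and Crtam, an adhesion molecule of cytotoxic T cells, 20 against 8 (3.45, 2.21 to 4.85). The NK cell genes Ncr1, Fcer1g and Tyrobp were at 0 in both groups. The receptors that were higher thus stood beside no transcript of these 3 genes.

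Transcripts of the cytotoxic granule were abundant in both groups. Of 14 genes with enough UMIs 2 were higher and 0 lower, with a median ratio of 0.05, whereas after thinning to 2000 UMIs 1 was higher and 2 were lower, with a median of -0.06. Over all 4450 genes of the unthinned comparison, 114 (2.56%) were higher and 417 (9.37%) lower after thinning. Prf1, the pore-forming perforin, had 72.7 CPM against 24.3, a ratio of 1.58 (1.06 to 2.09). After thinning its ratio was 0.80, and the shares of cells with a Prf1 UMI were 8.39% (4.41 to 14.2%) and 5.24% (3.80 to 7.01%), intervals that overlap. Gzmk, granzyme K, had 631 against 302, a ratio of 1.06 (0.90 to 1.22, and 0.89 without the 5% of cells with most UMIs). Gzmb, granzyme B, stood at 17240 CPM against 13517 (0.35, 0.32 to 0.38), and Nkg7, a granule membrane protein, at 4046 against 3922 (0.04, -0.01 to 0.10). Srgn, the granule proteoglycan serglycin, was at 1405 against 2530 CPM (-0.85, -0.94 to -0.76), and Ctsw, a cathepsin of cytotoxic cells, at 301 against 165 (0.87, 0.64 to 1.09).

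The genes of gut homing and residency were divided. Of 20 with enough UMIs 5 were higher and 2 lower, with a median ratio of 0.05, and after thinning 4 were higher and 4 lower, beside 2.56% and 9.37% of all genes. Itgae and Itgb7, the chains of the integrin alphaE beta7, had ratios of 1.48 (1.27 to 1.69) and 1.02 (0.84 to 1.20), and Itga1, whose product CD49a binds collagen, had 1.02 (0.54 to 1.49). Itgb7 and Itga1 fell short of 2-fold under some alternatives, such as 0.80 for Itgb7 against all cells with neither chain and 0.99 for Itga1 without cells with Mki67 or Top2a UMIs. Itgae stood at 396 CPM against 142, and at equal depth it was found in 51.0% of the Cd8a+Cd8b1+ cells (42.6 to 59.5%) and 22.9% of the comparison cells (20.1 to 26.0%). Cd7 and Cd160 were the other 2 that were higher.

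Rgs1, a regulator of chemokine receptor signalling, was lower with a ratio of -1.27 (-1.39 to -1.15), as did Ccr2, a receptor for inflammatory chemokines, with 8 UMIs against 173 (-2.30, -3.54 to -1.29). Ccr9, the receptor that guides T cells to the small intestine, was at 130 CPM against 248, a ratio of -0.94 (-1.25 to -0.63). The residency marker Cd69 had a ratio of -0.37 (-0.62 to -0.14). Homing receptors and integrins of this list therefore did not move one way.

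Of 7 cytokine genes with enough UMIs 0 were higher and 5 lower, with a median of -1.17. Il10 (chr1:131019845-131024974), the gene of the sorting reporter, stood at 288 CPM against 648, a ratio of -1.17 (-1.37 to -0.97, and -0.96 after thinning), with 0, 1 and 10 UMIs as the lowest, median and highest count per cell and a median of 2 in the comparison cells. At equal depth 39.9% of the Cd8a+Cd8b1+ cells had an Il10 UMI (31.8 to 48.4%) against 61.2% of the comparison cells (57.8 to 64.6%). Ifng, interferon gamma, had a ratio of -1.52 (-1.82 to -1.24), and Csf1, a growth factor of macrophages, had 4 UMIs against 240 (-3.78, -5.66 to -2.40).

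Areg, the epithelial growth factor amphiregulin, had a ratio of -2.18 (-2.67 to -1.72), but its 792 UMIs in the comparison cells came from 113 of them, with up to 40 in a cell. At equal depth the shares of cells with an Areg UMI overlapped, at 6.29% (2.92 to 11.6%) and 10.3% (8.33 to 12.7%). Ltb, lymphotoxin beta, had a ratio of -1.09 (-1.55 to -0.65), which was -0.96 without cells with Mki67 or Top2a UMIs. Tgfb1 was within 2-fold at -0.25, as was Tnfsf10, the death ligand TRAIL, at 0.69. Tnfsf8, the CD30 ligand, had 0 UMIs against 71, with an upper limit of -2.10 for its log2 ratio, but it was under the minimum. Its UMIs in the comparison cells came from 2.17% of them. Of the chemokine genes with enough UMIs, Ccl3 and Ccl4 had ratios of -0.37 and -0.24. Ccl5, at -0.19, was used to choose the comparison cells, so nothing is read from its ratio, and against the cells low in Ccl5 the ratios of Ccl3 and Ccl4 were 3.01 and 4.01.

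The list of co-inhibitory receptors and markers of type 1 regulatory T cells (Tr1 cells, which make IL-10 without Foxp3) held 11 genes with enough UMIs, of which 0 were higher and 3 lower, with a median of -0.78. Lag3, an inhibitory receptor for MHC class II, stood at 1361 CPM against 2804 (-1.04, -1.14 to -0.95) and was found at equal depth in 83.9% (76.9 to 89.5%) and 89.5% (87.2 to 91.6%) of the cells, and without thinning in 97.2% and 93.1%. Its ratio fell short of 2-fold without cells with Mki67 or Top2a UMIs (-0.95), after thinning (-0.93) and against all cells with neither chain (-0.87). Ctla4, which competes with CD28 for its ligands, had a ratio of -1.26 (-1.40 to -1.12), and Il12rb2, a chain of the IL-12 receptor, one of -2.79 (-3.43 to -2.22). Havcr2, which encodes TIM-3, and Pdcd1, which encodes PD-1, had ratios of 0.37 (0.05 to 0.67) and 0.44 (0.08 to 0.78), within 2-fold. The transcripts of these inhibitory receptors thus had ratios on either side of 0.

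All cells came from mice given anti-CD3, which stimulates the T-cell receptor. Of 16 response genes of this receptor with enough UMIs 0 were higher and 7 lower, with a median of -0.90. Tnfrsf4, which encodes the costimulatory receptor OX40, had 0, 0 and 16 UMIs as the lowest, median and highest count per cell and 129 CPM against 1132, a ratio of -3.14 (-3.44 to -2.85). Icos, another costimulatory receptor, had a ratio of -1.42 (-1.63 to -1.22). The immediate early genes Junb and Fos were at -1.42 and -1.26, and the feedback inhibitors Nfkbia, Dusp1 and Dusp2 at -1.60, -1.73 and -1.67. Nr4a1 was within 2-fold at -0.60, and of the 16 only Nr4a2 had a ratio above 0, at 0.54 (0.27 to 0.80).

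Of the parts of the T-cell receptor complex, Cd3d, Cd3e and Cd3g, the CD3 chains, had ratios of 0.09, -0.10 and 0.13. Without thinning, Cd3d and Cd3g were found in 100% of the Cd8a+Cd8b1+ cells, and in 906 and 893 of the 923 comparison cells, which were less deep. Cd247, the zeta chain, had -0.24 (-0.48 to -0.01), and Lck, the kinase bound by CD4 and CD8, had -0.15 (-0.29 to -0.01). Zap70, the kinase that follows Lck, was within 2-fold at 360 CPM against 604 (-0.75, -0.93 to -0.57). Of 10 genes of this list 0 were higher and 2 lower, the regulator Cd5 at -1.15 (-1.58 to -0.74, and -0.81 after thinning) and the costimulatory receptor Cd28 at -1.13 (-1.40 to -0.87), with a median of -0.24. The constant regions of the T-cell receptor chains were not analysed here, so alpha beta and gamma delta T cells could not be told apart by them. Of the 9 genes of the gamma delta list only 2 were listed, with 0 UMIs in the Cd8a+Cd8b1+ cells and 1 in the comparison cells. With so few UMIs in either group, these genes could not tell the 2 kinds of T cell apart.

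Among transcription factors, 1 of 16 was higher and 3 were lower, with a median of -0.18. Maf (chr8:115682942-115707794), a factor that binds the Il10 gene in T cells, had 38 UMIs in the Cd8a+Cd8b1+ cells, with 0, 0 and 9 as the lowest, median and highest count per cell, and 1998 in the comparison cells, with a median of 2. The ratio was -3.58 (-4.09 to -3.12). At equal depth 9.09% of the Cd8a+Cd8b1+ cells had a Maf UMI (4.93 to 15.04%) against 59.9% of the comparison cells (56.4 to 63.3%). Bhlhe40 and Rora were lower at -1.20 and -1.15, Rora falling short of 2-fold without the 5% of cells with most UMIs (-0.83). Ikzf2, which encodes Helios, was higher at 1.39 (1.04 to 1.75), with 140.2 CPM against 53.3, but not against all cells with neither chain (0.93).

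Of the factors and surface genes listed for the CD8 lineage, Runx3, a repressor of Cd4, was at 316 CPM against 258 (0.29, 0.08 to 0.50), Tox at 0.74 (0.40 to 1.06), Tbx21 at -0.33 (-1.04 to 0.32) and Cd96 at -0.10 (-0.40 to 0.20), all within 2-fold. Runx1, another Runx factor, was lower at -1.68 (-2.51 to -0.94), with 16 UMIs against 224. Of these 5 genes 0 were higher and 1 lower. The lineage factor Runx3 therefore differed less between the groups than did Cd4.

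The list of regulatory T-cell genes held 4 genes with enough UMIs, of which Ikzf2 was higher and Ctla4, Tnfrsf4 and Izumo1r (-2.15) were lower. Foxp3 had 1 UMI in the Cd8a+Cd8b1+ cells and 5 in the comparison cells, eGFP had 1 and 4, and mRFP 0 and 1. Of 3 genes of recirculating cells, Bcl2, which protects from cell death, was higher at 1.07 (0.55 to 1.58), but not against all cells with neither chain (0.88), and Il7r, the IL-7 receptor, lower at -2.35 (-3.82 to -1.19). Il7r, Areg and Gata3 were also the genes with enough UMIs in the list of innate lymphoid cells, of which 2 were lower and 0 higher. Of the follicular helper list 1 of 2 was lower, Tbc1d4 at -2.07 (-3.10 to -1.20), and the 9 Th17 genes together had 4 UMIs against 57.

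Genes of MHC class I presentation and interferon-stimulated genes did not pass 2-fold. Of 10 and 13 genes with enough UMIs 0 were higher and 0 lower in each list, with medians of -0.02 and -0.03. B2m, the light chain of MHC class I, is the most abundant gene of the first list, and Ifi27l2a that of the second.

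**Figure D4:**
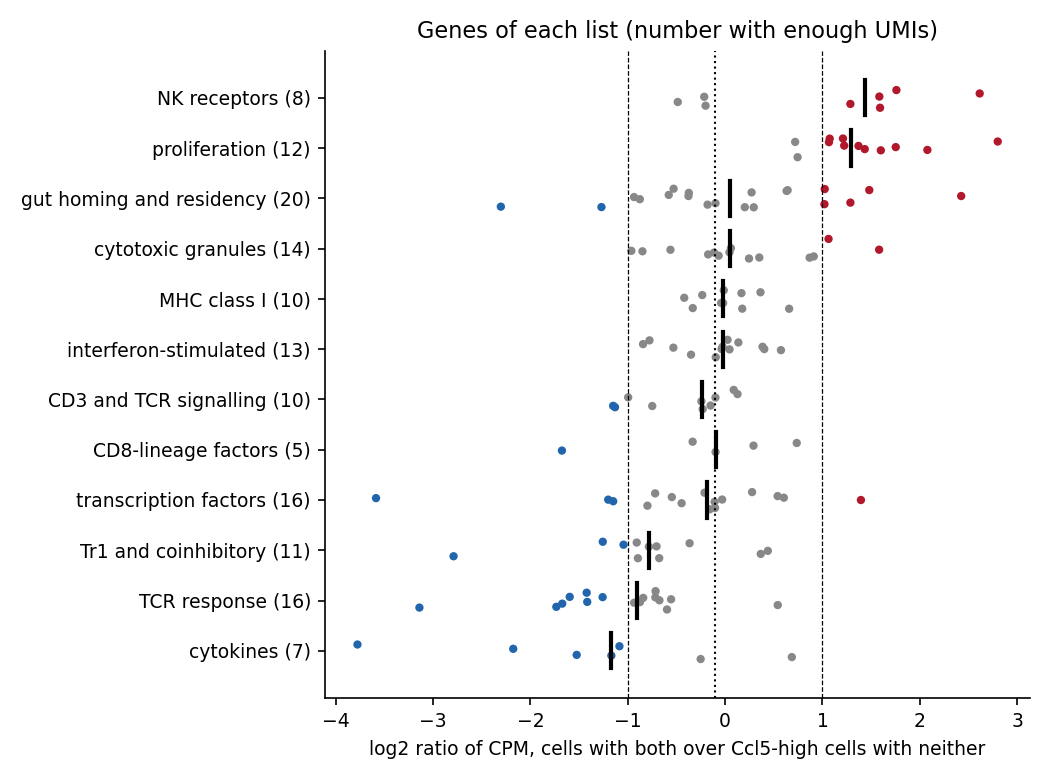
Each point is the log2 ratio of 1 gene with at least 100 UMIs, arranged by list with the number of genes in brackets, and black bars are the medians of the lists. Broken lines mark 2-fold and the dotted line the median of all 4450 genes (-0.11), with the list medians of NK receptor (1.44) and proliferation genes (1.30) to its right and those of cytokine (-1.17), T-cell receptor response (-0.90) and Tr1 genes (-0.78) to its left.

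Genes of dividing cells formed the list with most members past 2-fold. Of 12 with enough UMIs 10 were higher and 0 lower, with a median of 1.30. Against all cells with neither chain 5 were higher and 0 lower, with a median of 0.95, beside 67 higher and 346 lower of 5172 genes. Against the cells low in Ccl5 the median was 0.17. A UMI of Mki67 or Top2a, which mark dividing cells, was found in 40 of 145 Cd8a+Cd8b1+ cells (27.6%, 20.5 to 35.6%) and 90 of 923 comparison cells (9.75%, 7.91 to 11.8%). At equal depth the shares were 20.3% (14.0 to 27.8%) and 7.11% (5.43 to 9.11%). These 40 cells were deeper, with a median of 6348 UMIs against 4052 in the other 105.

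Without all cells that had a UMI of these genes, in both groups, 38 genes were higher and 250 lower of 3968, and 33 of the 77 were still among the higher ones. Of the 10 proliferation genes other than Mki67 and Top2a, 5 still passed 2-fold upwards, without applying the minimum of 100 UMIs again. Beside them, 55 (1.24%) were higher and 300 (6.74%) lower of the 4448 genes of the main comparison that had UMIs left. Of the 5, Birc5 (2.39, 1.54 to 3.24) had 24 UMIs against 27 and Ube2c (1.09, 0.22 to 1.89) 18 against 50, both under that minimum. Stmn1, Tubb5 and H2afz, with more UMIs, were within 2-fold at 0.56, 0.43 and 0.31. Hmgb2, a chromatin protein gene, went from 0.72 to -0.06. The genes that follow moved less. Cd7 had a ratio of 2.45 (2.32 to 2.58), Klrd1 one of 1.85 (1.69 to 2.002), Cd4 one of -1.93 (-2.32 to -1.57), Maf one of -3.45 (-4.05 to -2.92) and Il10 one of -1.37 (-1.63 to -1.11).

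The 15 genes with the highest ratios included 6 of DNA replication and chromosomes. These were the histone genes Hist1h2ap (2.90) and Hist1h2ae (2.47), 2810417H13Rik (2.80), the replication genes Rrm2 (2.08) and Mcm5 (2.02), and Cenpw (1.85), with Klrc2 and Cd7 among the rest. Histone genes have near-identical copies, so their values are uncertain, and without cells with Mki67 or Top2a UMIs Hist1h2ap turned to -1.66 with 3 UMIs against 56, Rrm2 stood at -0.023 and Mcm5 at 0.56. The ratios of the other 3 were past 2-fold there too, with Hist1h2ae at 3.56, Cenpw at 2.15 (1.32 to 2.96) and 2810417H13Rik at 1.49. Cenpw had only 24 UMIs against 32 among these cells, under the minimum of 100. For Hist1h2ae and 2810417H13Rik neither counts nor intervals are given at this setting, so how firm their ratios are is not shown.

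The ranking leaves out Cd8a and Cd8b1, the genes of the rule. The highest of the 15 was Calcb, which encodes the neuropeptide beta-CGRP, with 100 UMIs, or 129.9 CPM, against 46 UMIs, or 13.6 CPM, and a ratio of 3.25 (2.73 to 3.79). It was followed by Car2, the enzyme carbonic anhydrase 2, with 168 CPM against 21.9 (2.93, 2.51 to 3.37). Gpx8 (2.40), Cd72 (1.97), the metallothionein Mt1 (1.89), Oxct1, an enzyme of ketone use (1.85), and AA467197 (1.81) completed them. Without cells with Mki67 or Top2a UMIs Calcb stood at 3.29 (2.71 to 3.89), Car2 at 2.84 (2.35 to 3.33) and Gpx8 at 2.48 (1.89 to 3.06). Calcb, Car2 and Gpx8 thus had similar ratios among cells without Mki67 or Top2a UMIs.

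The 15 lowest included, beside Cd40lg, Csf1, Maf, Tnfrsf4 and Il12rb2, the IL-18 receptor chain Il18r1 (-4.04, with 4 UMIs against 289), Podnl1 (-4.15, with 4 against 311), Tmem154 (-3.23), the secreted matrix protein gene Ecm1 (-2.83), the cell cycle kinase gene Cdk6 (-2.79), Tspan5 (-2.78), Marcksl1 (-2.60), Ramp3, a partner of calcitonin-family receptors (-2.51), the chemokine receptor Cxcr4 (-2.50) and Lin7c (-2.45). In members of this group with fewer than 10 UMIs the intervals were wide. That of Cxcr4, with 4 UMIs against 99, ran from -4.40 to -1.10.

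The other intestinal groups were then set beside the Cd8a+Cd8b1+ cells. Cd4 stood at 118 CPM (95.1 to 145) in the cells with both chains, 320 (249 to 404) in those with Cd8a only, 450.4 (352 to 568) in those with Cd8b1 only, 465 (443 to 489) in the comparison cells and 366 (330.1 to 404) in cells low in Ccl5. The ratio of the Cd8a+Cd8b1+ cells to those with Cd8a only was -1.44 (-1.90 to -0.96). Above this lowest level, neighbours in the order of levels had overlapping intervals.

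Against cells with Cd8a only, 0 of the 19 genes of gut homing and residency that could be compared were higher and 0 lower by 2-fold, with ratios from -0.98 for Rgs1 to 0.97 for Cd160. Over all 4302 genes with at least 20 UMIs in these groups together, 204 (4.74%) were higher and 224 (5.21%) lower. The Cd7 level of cells with Cd8a only was 1630 CPM (ratio 0.19, 0.02 to 0.36) and their Itgae level 338 CPM (0.23, -0.14 to 0.62). Of genes outside that list, Gzma was at 36525 CPM (0.36, 0.32 to 0.39) and Lag3 had a ratio of 0.08 (-0.11 to 0.28). Larger differences were found for Maf, at 49.3 against 269 CPM (-2.45, -3.08 to -1.84), Klrd1 (1.07, 0.78 to 1.38) and Klrc1, at 239 against 22.8 CPM (3.39, 2.14 to 5.03). Klrc2 had a ratio of 2.05 (0.96 to 3.40) and Car2 one of 3.61 (2.03 to 5.91). Calcb had 1 UMI in the cells with Cd8a only, a ratio of 4.83 (2.32 to 10.15), and 0 in those with Cd8b1 only.

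Among the cells with Cd8a only, those with more Cd8a had few Klrc1 and Klrc2 transcripts too. The 29 of them with 2 or more Cd8a UMIs had 2143 CPM of Cd7 (1885 to 2427) and 138 CPM of Maf (78.7 to 224), but 1 UMI each of Klrc1 and Klrc2. Of the 12 proliferation genes, in Cd8a+Cd8b1+ cells over cells with Cd8a only, 2810417H13Rik passed 2-fold upwards (1.07) and Cenpf downwards (-1.24), with a median of -0.80, beside the 4.74% and 5.21% of all genes. At equal depth a Top2a UMI was found in 18.2% (12.2 to 25.5%) and 15.7% (7.02 to 28.6%) of these cells, intervals that overlap.

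Against the 245 cells low in Ccl5, which the main comparison leaves out, some ratios were within 2-fold. Ikzf2 had a ratio of 0.01 (-0.37 to 0.37), Lag3 one of -0.14 (-0.26 to -0.03), Top2a one of 0.29 (-0.09 to 0.67) and Stmn1 one of -0.35 (-0.61 to -0.10). Cd4 at -1.63 (-1.98 to -1.30), Maf at -3.76 (-4.27 to -3.29), Cd7 at 4.21 (3.92 to 4.51) and Klrd1 at 5.30 (4.75 to 5.91) were past 2-fold there too. When all cells with neither chain were the comparison, whatever their Ccl5, 67 genes were higher and 346 lower, and 48 of the 77 were still among the higher ones.

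Cells with Cd8b1 only were nearer to the comparison cells. Their Maf level was 577 CPM against 592 in the comparison cells, their Cd7 level 552 against 347, and their Tnfrsf4 level 717 against 1132. Within the comparison cells, the 391 with a Cd7 UMI had less Maf (466 CPM) than the 532 without (695), and more Klrd1 (371 against 238), Gzma (30491 against 20361) and Itgae (217 against 80.8). Against those 391 cells the ratios of the Cd8a+Cd8b1+ cells were smaller for Itgae (0.87, 0.64 to 1.10) and Lag3 (-0.49, -0.59 to -0.39), but Maf at -3.24 (-3.75 to -2.77), Cd4 at -1.85 (-2.19 to -1.53) and Klrc2 at 2.29 (1.76 to 2.85) were still past 2-fold.

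**Figure D5:**
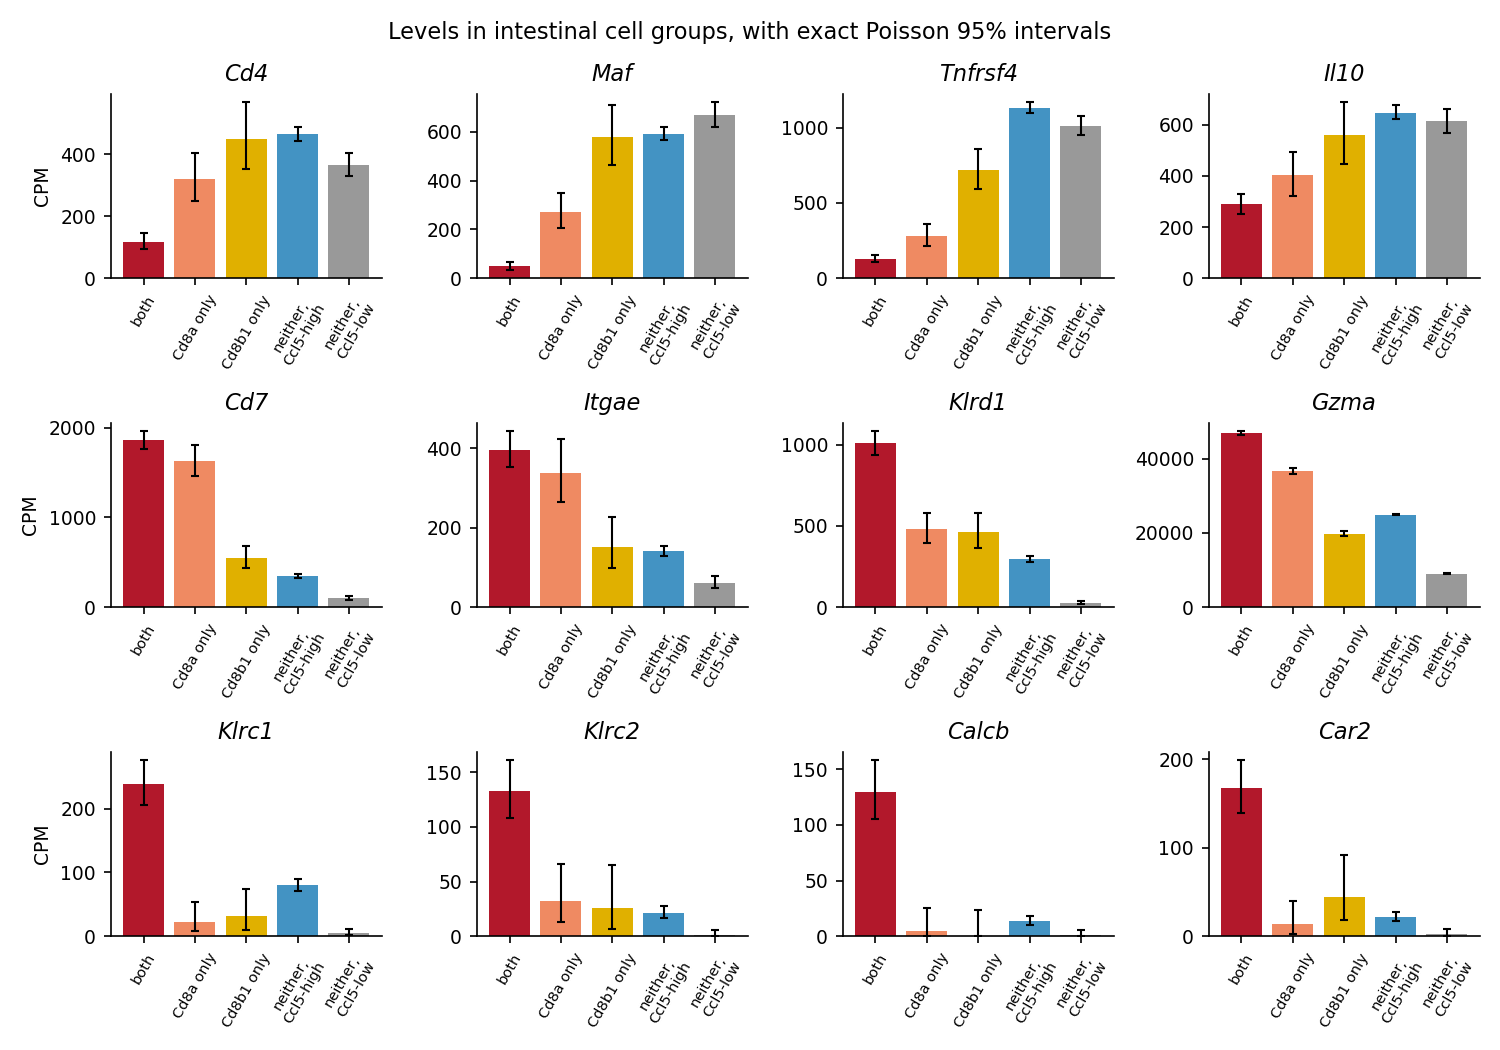
Bars give the level of each gene in CPM in 5 groups of intestinal cells (145, 59, 36, 923 and 245 cells from left to right) and lines the exact Poisson 95% intervals, which cover counting error only. Cd4, Maf and Tnfrsf4 are lowest in the Cd8a+Cd8b1+ cells, cells with Cd8a only reach similar Cd7 and Itgae levels, and Klrc1, Klrc2, Calcb and Car2 are highest in the Cd8a+Cd8b1+ cells.

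Markers of other cell types were low. The 19 epithelial genes together stood at 46.7 CPM in the Cd8a+Cd8b1+ cells and 53.0 in the comparison cells, with Lgals4 the most abundant and 11 of the 19 at 0 in the former. The 6 listed genes of B and plasma cells stood at 11.7 and 8.30 CPM, all of it Cd79b in the Cd8a+Cd8b1+ cells with Cd79a at 0, and those of mast cells and erythroid cells had 0 and 1 UMIs. The 16 myeloid genes stood at 169 and 168 CPM, most of it Cst3. Only Cst3 had enough UMIs. Under the minimum of 100 UMIs, Cd74 had 1 UMI against 87, H2-Aa 0 against 25, and Itgax, which encodes the integrin chain CD11c, 27 against 1 (ratio 6.89, 4.29 to 12.24).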

How the data were processed

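The authors deposited UMI counts for each gene in each barcode, not normalized. According to the submitters' processing notes, reads were trimmed with Trimmomatic and aligned to Mm10 and counted with Cell Ranger, for which versions are not given in the sources used here. The deposited counts list 28009 genes and precede the filters of the study. Here, cells with 6% or more of mt- UMIs were left out, no doublets were removed, and UMIs were summed by cell group, which decides what a low count can show: 3 UMIs correspond to 3.90 CPM in the Cd8a+Cd8b1+ cells and 0.889 CPM in the comparison cells. Genes needed 100 UMIs over both groups. Cells were thinned with random seed 1. The ratios and their intervals were tested on simulated group sums with known ratios. That simulation held no variation between cells and no choice of cells, so it does not cover those. Python 3.11.15, numpy 2.4.6, scipy 1.17.1, pandas 2.3.3 and matplotlib 3.10.9 were used.

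Named are genes of 25 lists, the 15 highest and 15 lowest ratios, and the markers of these cells. Members and lists were chosen with earlier results of these data known. Symbols are those of the files, and 318 of 323 named genes were placed on GRCm38 with GENCODE. The alternatives changed the mitochondrial limit, the Cd8 and Ccl5 limits, depth, weighting, scaling, the minimum of UMIs and the dividing, Cd4-containing or deepest cells. Of the spleen, only Cd8a and Cd8b1 were analysed.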

Additional observations from a re-analysis of the deposited data

Results flagged for a closer look

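Cd8b1 UMIs appeared in the splenic library, which the comparisons above do not use. Of 1681 splenic cells below the mitochondrial limit, 117 (6.96%, exact binomial 95% interval 5.79 to 8.28%) had a Cd8b1 UMI, with 139 UMIs in all, a median of 1 and a highest count of 3 per such cell, or 12.7 CPM (exact Poisson 10.7 to 14.98). A Cd8a UMI was found in 0 of the same cells. The exact binomial 95% interval reached 0.219%, and a limit of 3 counts corresponds to 0.178%, both for counting error only. The share of Cd8b1 lay above the 1.98% of intestinal cells low in Ccl5, and the splenic cells were deeper, with medians of 5687 and 3818 UMIs. The source of the splenic Cd8b1 UMIs was not tested.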

How the results depend on the processing

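Cd8a+Cd8b1+ cells numbered 105 to 158 under 5 alternatives, and the log2 ratio of Cd4 ran from -2.15 to -1.87 under 12. The count of genes at least 2-fold higher (77) changed most with depth, the minimum of UMIs and dividing cells. It was 34 when cells were thinned to 2000 UMIs (26 of them among the 77), where fewer genes reached the minimum, 38 without cells with Mki67 or Top2a UMIs, 160 at a minimum of 50 UMIs and 1225 with only 1 UMI in each group. The count of lower genes (232) became 380 and 941 at these last settings. The share of Cd8a+Cd8b1+ cells with a Cd4 UMI, 18.9% at 2000 UMIs, was 11.7% at 1000 UMIs, 27.6% at 3000 UMIs and 39.3% with no thinning. Of 75 named genes tried under 13 settings, 72 were past 2-fold, and 927 of their 929 values kept their direction. These genes were chosen for being past 2-fold in largely the same cells, so most directions were likely to hold from the start. The setting that asked for at least 1% Ccl5 in the Cd8a+Cd8b1+ cells changed nothing, because all 145 already had it. Of the 968 values of all 75 genes, 89 lay outside the counting interval of the reported ratio and 879 within it. The exceptions in direction, both without cells with Mki67 or Top2a UMIs, were Hist1h2ap at -1.66 and Rrm2 at -0.023. The 2-fold call was lost at least once for 19 genes, in 36 values. No paired analysis was possible because each tissue had 1 library and no replicate numbers. The lack of replicates limits all values to this library.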
